A study of Mus musculus with 10 samples.

Results

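The genes of oxidative phosphorylation encode the subunits of the mitochondrial respiratory chain and of ATP synthase. They were chosen by gene symbol, as the probes whose name starts with Nduf followed by a, b, c, s or v, is Sdha, Sdhb, Sdhc or Sdhd, or starts with Uqcr, Cox4 to Cox8, or Atp5. This rule found 115 probes of 91 genes, of 41174 probes and 18539 named genes on the arrays. Of these 91 genes, 83 encode structural subunits, 7 are complex I assembly factors of the Ndufaf series, and the last is Cox7a2l, which takes part in joining complexes III and IV. The rule used no measured value.

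The study asked how a diet rich in fish oil changes gene expression in the mouse brain. RNA came from the left hemibrains of male C57BL/6J mice, which entered at 3 weeks of age, were housed singly, stayed on a diet for 20 weeks and were 5 months old at the end. The 10 arrays used here each measured a different mouse, named by its animal number, in the dye Cy-5, against another RNA in the dye Cy-3. The sources disagree on both channels. The diet entries give the fish oil diet (FD) for all 10 mice and a pool of hemibrains from mice on the standard diet (SD) for Cy-3. Their description fields, however, read controls and the methods name a commercial reference RNA. The methods also describe fewer arrays than the 10 used here, from mice on FD and mice on SD. No diet was therefore assigned to a mouse, no diet comparison was made, and the 10 arrays were treated as 10 hemibrains set against 1 reference RNA. No array carried the dyes the other way round, so a dye effect of a probe and a difference between the RNAs cannot be told apart.

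In the respiratory chain, complex I takes electrons from NADH and complex II takes them from succinate. Complexes III and IV pass them on to oxygen through cytochrome c, and the protons pumped on the way drive ATP synthase, which is complex V. A few subunits are encoded by the mitochondrial genome and are not covered by the rule. The subunits described here are nuclear genes, and nuclear subunits whose symbols do not match the rule are not covered either. Several subunits of complex IV exist as pairs of isoforms, a widely expressed form and a form best known from muscle, lung or testis, and neurons draw most of their ATP from this pathway.

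The unit throughout is log2 Cy-5/Cy-3, the log2 ratio of both dyes at a gene's brightest probe, so that 1 is a doubling in the hemibrain channel. A gene was called higher or lower at an adjusted p under 0.05 (limma, Benjamini-Hochberg over all probes) with at least a 1.5-fold difference. The call and the fold use the mean over the arrays, and so do gene ratios under other settings, whereas the main values of a gene are mostly medians. A gene whose median lies beyond the limit can therefore stay uncalled. The Cy-3 RNA did not read like a pool of hemibrains. All 7 neuronal markers were higher in Cy-5, with a list median of 4.94 to 5.69 over the arrays, and so were all 5 astrocyte and all 4 oligodendrocyte markers. All 5 proliferation markers were lower, with list medians from -6.42 to -5.57. Of the muscle markers, 3 of 4 for skeletal muscle were lower (list median -1.98 to -1.57) and 2 of 3 for heart were higher. What these differences in RNA source contribute to each value given here was not tested, and in tissue RNA fewer cells of a type and less RNA per cell cannot be told apart. The array of C10-434 stood apart, with only 49.8% of its Cy-5 signals well above background, where the other arrays had 68.2% to 76.9%. In Cy-3 this share was 61.9% to 79.1%, and no spot was saturated on any array.

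Of the 91 genes, 46 were higher in the hemibrain channel, 9 were lower and 36 were not called. Over all named genes, 34.5% were called higher and 27.3% lower. The median of the gene medians was 0.64 for the 91 genes and 0.12 for all genes. The ratio was above 0 on every array with a value for 59 of the 91 genes and below 0 on every such array for 11. How many of all named genes kept the same sign was not counted, so these counts are not read as particular to the members. A total of 87 genes were well above background in both dyes on all arrays, and among genes that met this condition over the whole array 37.8% were higher and 28.2% lower, 66% in all. The other 4 were Cox4i2, Cox7b2, Cox8b and Cox8c, all subunits of complex IV. Without C10-434, 47 genes were higher and 8 lower. The range of a gene's ratio over the arrays had a median of 0.64 for the members, 0.96 for all genes and 0.78 for all genes well above background. The members were also brighter. Their mean log2 signal over both dyes had a median of 15.6, against 10.2 for all genes and 11.9 for all genes well above background. The part of brightness in the range was not tested.

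**Figure D1:**
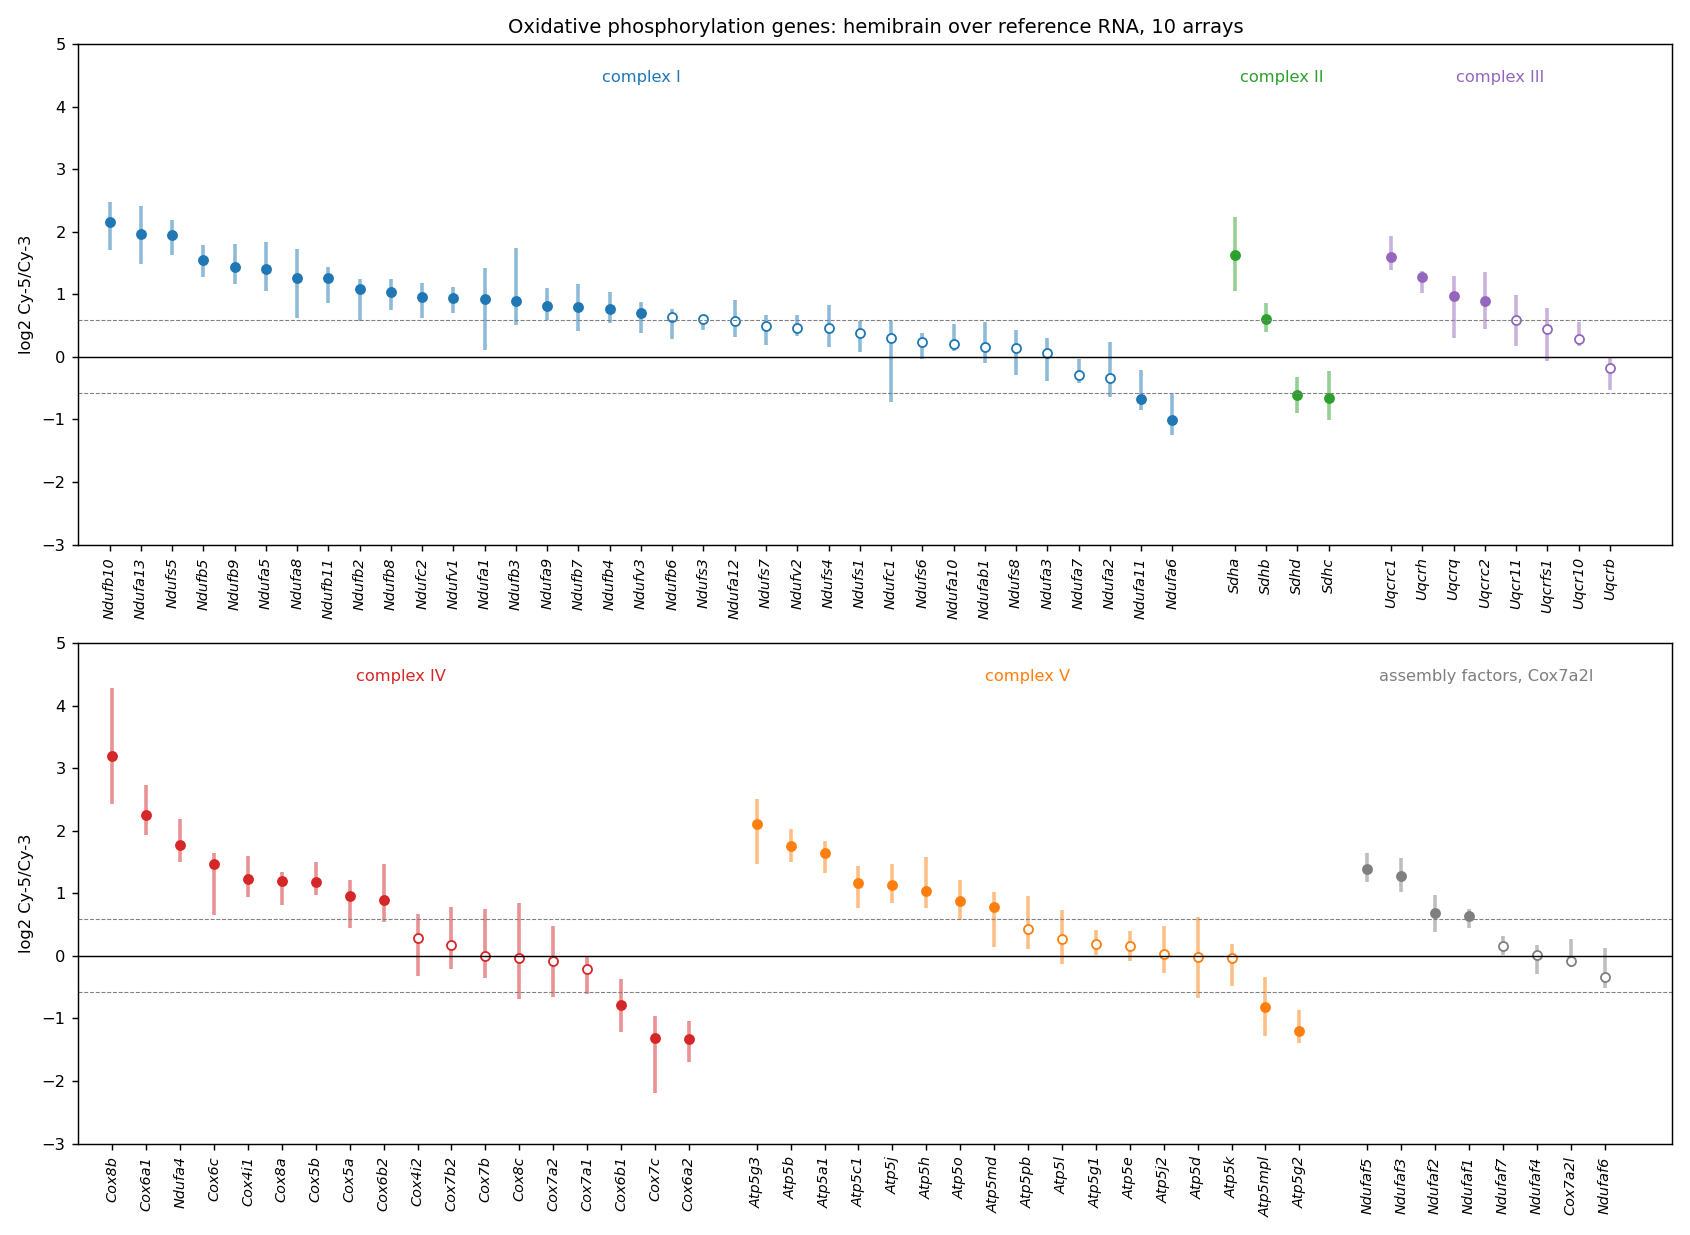
Log2 Cy-5/Cy-3 (hemibrain over reference) of the oxidative phosphorylation genes, ordered by complex and by median. Points are medians over the arrays with a value, filled where the gene was called, vertical lines run from the lowest to the highest array, and dashed lines mark 1.5-fold. Calls use the mean, so an open point can lie beyond a dashed line. Most of complexes I, III, IV and V lies above 0, complex II is split, and the lowest genes are Cox6a2, Cox7c and Atp5g2.

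The sequences upstream of some of these genes are shown. The Atp5g genes are among them because close relatives fell on opposite sides of the reference, and Cox6a1, Ndufa6 and Sdhd are further examples. They are the 250 bases before the transcription start, from RefSeq on GRCm38.p6, written 5′ to 3′ on the strand of the gene. Capitals mark the letters of motifs that factors of nuclear respiratory genes are known to bind. The motifs searched, on both strands, were GCGCATGC for NRF1, CCGGAAG for the ETS family to which GABP belongs, and AAGATGGC for YY1. The Atp5g genes encode the same mature c subunit of ATP synthase. The Cox6a1 gene encodes a complex IV subunit and was the highest in its complex among genes well above background on all arrays. The Ndufa6 and Sdhd genes were called lower in complexes I and II.
Atp5g1, chr11:96075632-96075881, minus strand: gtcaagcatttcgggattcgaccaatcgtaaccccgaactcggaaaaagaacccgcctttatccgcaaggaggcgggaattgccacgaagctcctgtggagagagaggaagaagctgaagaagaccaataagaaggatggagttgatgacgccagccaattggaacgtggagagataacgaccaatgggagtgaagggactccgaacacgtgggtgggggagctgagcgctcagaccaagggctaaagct
Atp5g2, chr15:102671048-102671297, minus strand: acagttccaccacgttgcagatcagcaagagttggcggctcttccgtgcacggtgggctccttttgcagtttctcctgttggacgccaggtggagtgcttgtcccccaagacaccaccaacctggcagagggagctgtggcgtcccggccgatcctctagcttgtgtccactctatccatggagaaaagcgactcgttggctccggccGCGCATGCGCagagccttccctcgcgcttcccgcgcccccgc
Atp5g3, chr2:73911327-73911576, minus strand: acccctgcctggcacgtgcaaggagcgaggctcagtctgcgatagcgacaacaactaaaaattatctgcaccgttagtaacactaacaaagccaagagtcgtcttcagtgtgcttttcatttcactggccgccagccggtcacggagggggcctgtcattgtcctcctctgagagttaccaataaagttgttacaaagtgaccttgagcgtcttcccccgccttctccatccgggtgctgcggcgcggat
Cox6a1, chr5:115348959-115349208, minus strand: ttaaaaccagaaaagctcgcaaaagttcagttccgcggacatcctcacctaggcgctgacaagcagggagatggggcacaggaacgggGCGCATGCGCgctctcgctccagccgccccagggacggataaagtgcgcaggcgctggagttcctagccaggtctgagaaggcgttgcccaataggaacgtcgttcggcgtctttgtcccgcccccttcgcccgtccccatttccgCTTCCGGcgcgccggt
Ndufa6, chr15:82354292-82354541, minus strand: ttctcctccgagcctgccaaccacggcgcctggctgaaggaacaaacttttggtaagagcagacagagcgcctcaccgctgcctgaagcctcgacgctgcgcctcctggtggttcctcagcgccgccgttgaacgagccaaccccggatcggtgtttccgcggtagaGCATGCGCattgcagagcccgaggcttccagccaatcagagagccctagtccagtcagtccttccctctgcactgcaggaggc
Sdhd, chr9:50603850-50604099, minus strand: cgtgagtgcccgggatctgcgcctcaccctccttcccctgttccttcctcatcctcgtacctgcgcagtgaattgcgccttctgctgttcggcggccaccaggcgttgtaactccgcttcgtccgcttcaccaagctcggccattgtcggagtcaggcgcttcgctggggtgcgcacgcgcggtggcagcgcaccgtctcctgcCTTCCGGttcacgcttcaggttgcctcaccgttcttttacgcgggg

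In the Atp5g2 sequence the capitals hold 2 overlapping NRF1 matches, on opposite strands, which begin 42 and 40 bases before the start. The Atp5g1 and Atp5g3 sequences hold none of the motifs. The Cox6a1 sequence holds 2 overlapping NRF1 matches, 162 and 160 bases before the start, and an ETS match at 16 bases. Ndufa6 has an NRF1 match at 83 bases and Sdhd an ETS match at 46 bases. Promoter windows of 300 bases, which add 50 bases after the start, were at hand for 75 of the 91 genes, in 80 windows. The NRF1 letters stood in 15% of these windows against 2.71% of all 32851 windows, the ETS letters in 22.5% against 8.86%, and the YY1 letters in 12.5% against 2.75%. At least 1 of the motifs stood in the windows of 34 genes, of which 14 were higher, 5 lower and the median of the gene medians 0.54. Of the 41 genes with none of them, 25 were higher, 1 was lower and the median was 0.89. The lower gene was Cox7c, whose sequence is not shown. Of all named genes, 34.5% were higher and 27.3% lower. A match of letters is a description and not a site of binding.

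Complex I, the NADH dehydrogenase, had 19 of its 36 subunit genes higher and 2 lower, beside 34.5% and 27.3% of all named genes. Over the arrays, the median of its subunits ran from 0.54 to 0.92, with a median of 0.67. The Ndufb series, accessory subunits of the membrane arm, held 9 higher genes of 10 and no lower one. The Ndufa series held 5 higher and 2 lower of 13, the Ndufs series 2 higher of 8, the Ndufv series 2 higher of 3 and the Ndufc series 1 higher of 2. The 7 catalytic core genes, several of whose proteins carry the flavin or the iron-sulphur clusters, were mostly closer to 0 than the accessory genes, with a median of 0.49 against 0.79. Among these, the NADH-binding subunit gene Ndufv1 ranged from 0.71 to 1.12 with a median of 0.94 and was higher (1.89-fold, adjusted p = 1.79e-08). The genes Ndufs1, Ndufs3, Ndufs7, Ndufs8 and Ndufv2 had medians from 0.15 to 0.60 and were not called. The mean of Ndufs3, 0.57, lay under the 1.5-fold limit.

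At the top of complex I stood Ndufb10, an accessory subunit of the membrane arm. Its ratios ran from 1.70 to 2.47 with a median of 2.16, a 4.45-fold difference (adjusted p = 2.25e-10). All 10 arrays were above 0. At the bottom, Ndufa6, an accessory subunit of the LYR family, ran from -1.25 to -0.60 with a median of -1.01, 1.96-fold lower (adjusted p = 2.09e-07). Ndufa11, an accessory subunit of the membrane arm, ran from -0.84 to -0.21 with a median of -0.67, 1.54-fold lower (adjusted p = 4.53e-06). All 10 arrays were below 0 for both, but Ndufa11 no longer reached 1.5-fold after normexp background correction (-0.58) or on the second slide alone (-0.56).

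Complex II, succinate dehydrogenase, was split. Its hydrophilic subunits, the flavoprotein Sdha and the iron-sulphur protein Sdhb, were higher, and both membrane anchors, Sdhc and Sdhd, were lower. Sdha ran from 1.05 to 2.23 with a median of 1.63 (3.12-fold, adjusted p = 2.05e-08). The other Sdha probe, also well above background on all arrays, ran from 0.32 to 1.57 with a median of 0.92 and was called higher. Sdhb ran from 0.40 to 0.86 with a median of 0.60 (1.55-fold, adjusted p = 3.90e-06). Sdhc ran from -1.01 to -0.23 with a median of -0.67 (1.53-fold lower, adjusted p = 3.19e-05). Sdhd ran from -0.90 to -0.32 with a median of -0.61 (1.51-fold lower, adjusted p = 5.08e-06). Sdha was above 0 and the anchors were below 0 on all 10 arrays, and Sdhb was above 0 on the 9 arrays that gave it a value. The calls of Sdhb, Sdhc and Sdhd lay close to the 1.5-fold limit, which is 0.58 on the log2 scale, and each was lost under 3 or 4 of the alternatives with its direction kept. Sdhb fell short with no further loess (0.56), median centring (0.55), the authors' table (0.58) and normexp (0.53). Sdhc fell short with the floored subtraction (-0.46), normexp (-0.50) and without C10-437 (-0.58), and Sdhd with the same background corrections (-0.55 and -0.58, respectively) and without C10-434 (-0.56). The median of the 4 genes was 0.03 and ran from -0.23 to 0.27 over the arrays, on either side of 0, where the lowest array, C10-424, had no value for Sdhb.

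Complex III, which passes electrons from quinol to cytochrome c, had 4 of 8 genes higher and none lower. Of all named genes, 34.5% were higher and 27.3% lower. The median of complex III over the arrays was 0.82, with the lowest value, 0.27, on C10-413 and the highest on C10-435. Uqcrc1, a core protein of the matrix side, ran from 1.38 to 1.93 with a median of 1.59 (3.03-fold, adjusted p = 1.21e-10). The Rieske iron-sulphur protein gene Uqcrfs1, the catalytic subunit covered by the rule, ran from -0.06 to 0.77 with a median of 0.45 and was not called (1.36-fold). Uqcrb, the lowest gene of the complex, was read on 5 of 10 arrays, with a median of -0.18 (-0.52 to 0.00), and was not called either. C10-435 was among the arrays without it, C10-413 among those with it. The remaining higher genes were Uqcrh, Uqcrq and Uqcrc2, with medians of 1.28, 0.97 and 0.90. Cytochrome c itself, which is no member, was not called, with a median of 0.43 for Cycs (0.35 to 1.00).

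Complex IV, cytochrome c oxidase, had 9 of 18 genes higher and 3 lower, beside 34.5% and 27.3% of all named genes. The widely expressed forms Cox4i1, Cox5a, Cox5b, Cox6a1, Cox6c and Cox8a were higher, with medians from 0.96 to 2.25, and so was Ndufa4, a subunit of complex IV that was first assigned to complex I, at 1.77. The lower genes were Cox6a2, Cox6b1 and Cox7c. Cox7c, a small subunit, ran from -2.19 to -0.96 with a median of -1.31 (2.59-fold lower, adjusted p = 1.21e-07), with C10-413 well below the other arrays, which began at -1.64. Other Cox7 forms lay near 0, with medians of -0.08 for Cox7a2, -0.21 for Cox7a1, -0.01 for Cox7b and 0.17 for Cox7b2, and none of them was called. Over 17 genes, with Cox8c left out as near background, the complex median over the arrays was 0.75 (0.44 to 1.07). It moved most with the processing, down to 0.25 after normexp. The median of the gene medians of all 18 genes, Cox8c included, was 0.59.

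The tissue isoforms were compared within each array, as the difference between their log2 ratios. A difference of 1 means that the first form, relative to the second, was 2-fold more abundant in the hemibrain RNA than in the Cy-3 RNA. It does not give the level of a form relative to its partner in the brain. Of 10 pairs tested by a two-sided exact sign-flip permutation test over the arrays, 7 differed with the same sign on 10 of 10 arrays (p = 0.00195, the smallest this design can give, adjusted p = 0.00279 for each). How often pairs of other genes differ in this way was not counted, so the count is not read as particular to isoforms. The Atp5g pairs among them share their genes and are not separate results.

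Cox6a gave the widest gap. The Cox6a1 ratio, of the form found in most tissues, ran from 1.94 to 2.73 with a median of 2.25 (adjusted p = 8.65e-11 with limma). The Cox6a2 ratio, of the form of heart and skeletal muscle, ran from -1.69 to -1.05 with a median of -1.33 (adjusted p = 2.21e-09 with limma). No array of one gene came near any array of the other. Cox6a1 minus Cox6a2 was 3.62 ± 0.31 (SD, n = 10 arrays), a 12.3-fold shift between the forms (p = 0.00195, exact permutation test). Of the skeletal muscle markers, Myl1, Tnnt3 and Acta1 were lower in Cy-5, with medians of -3.03, -2.62 and -0.99, and Ckm was not called (-0.34). Of the heart markers, Myh6 and Myh7 were higher, at 4.37 and 4.59, and Tnnt2 was not called (-0.29). Their part in the Cox6a2 value was not tested.

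The direction of the other complex IV pairs was not uniform. Cox4i1, the general form, exceeded Cox4i2, the form known from lung, by 0.96 ± 0.41 (SD, n = 10 arrays), with single arrays from 0.31 to 1.57, and by 0.62 with the floored subtraction. The Cox4i2 probe was dim, however, and was well above background on 9 of 10 arrays in each dye. What background contributes to its ratio, with a median of 0.29, was not tested. For Cox6b the order was the other way, since Cox6b1, the general form, was lower (median -0.78, -1.21 to -0.37) and Cox6b2, the form known from testis, was higher (median 0.89, 0.54 to 1.46). Their difference was -1.70 ± 0.31 (SD, n = 10 arrays), and no array of Cox6b1 overlapped with any of Cox6b2. Of the 4 testis markers, 2 were lower in Cy-5 and none was higher. After normexp the Cox6b2 ratio was 0.56 and no longer reached the call.

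Cox8b, a form best known from heart, skeletal muscle and brown fat, had the highest ratio of all members, from 2.43 to 4.27 with a median of 3.20. Cox8a, the general form, ran from 0.80 to 1.35 with a median of 1.20. Cox8a minus Cox8b was -2.06 ± 0.68 (SD, n = 10 arrays). The Cox8b probe was dim, however, and its Cy-3 signal was well above background on 9 of 10 arrays. Its mean ratio of 3.22 fell to 1.47 with the floored subtraction and to 1.03 after normexp, and the difference between the forms then shrank to -0.70 and -0.14. The size of the Cox8b ratio thus depends on the background correction, while its sign did not in any setting. The heart markers Myh6 and Myh7 had medians of 4.37 and 4.59, but Tnnt2 was at -0.29 and the skeletal muscle markers lay between -3.03 and -0.34. Cidea, a gene of brown fat, had a median of 5.63, whereas Ucp1, the defining gene of brown fat, was well above background on no array in either dye. Cox8c, a form known from testis, was well above background on no array in Cy-5 and on 1 in Cy-3, and no fold was taken from it.

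The Cox7 pairs did not separate. Cox7a2 minus Cox7a1 was 0.18 ± 0.25 (SD, n = 10 arrays), above 0 on 9 of 10 arrays, and missed the threshold after adjustment over the 10 pairs (exact permutation p = 0.0488, adjusted p = 0.0610). Cox7a2 minus Cox7a2l, read on 9 arrays, was -0.01 ± 0.35, with single arrays from -0.82 to 0.33 (exact permutation p = 0.957). This pair was among the 10, but Cox7a2l takes part in joining complexes III and IV and was not counted as a structural subunit. Cox7b minus Cox7b2 was -0.21 ± 0.51 (SD, n = 10 arrays), with single arrays from -1.14 to 0.79 (exact permutation p = 0.229, adjusted p = 0.254). The Cox7b2 probe was dim and was well above background on 9 arrays in each dye. A miss of the threshold does not show that the forms were alike. The spread of these differences between arrays exceeded their means.

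**Figure D2:**
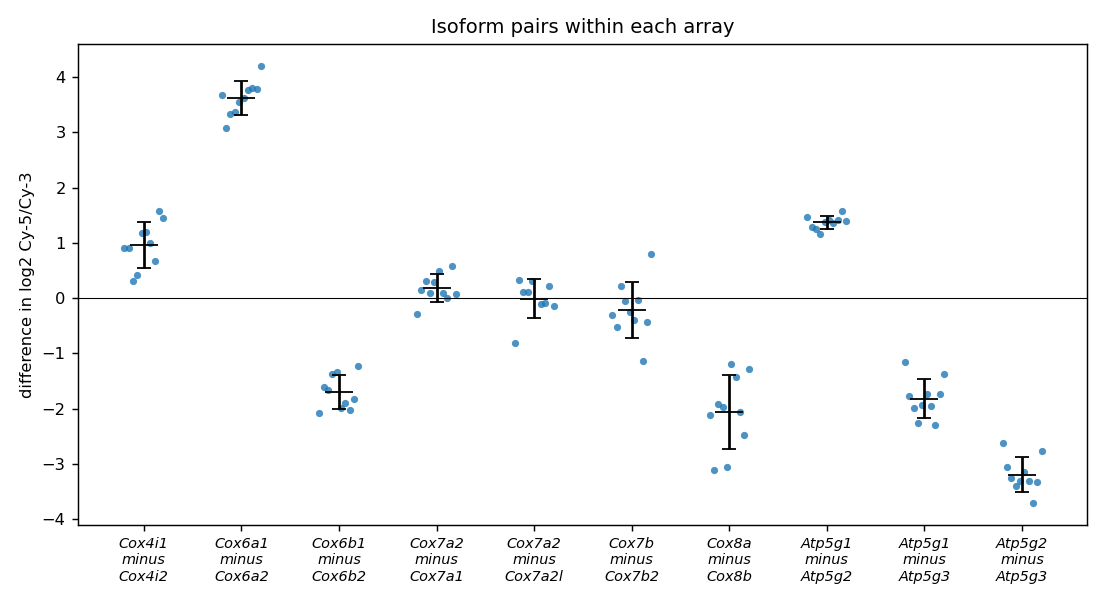
Difference between the log2 Cy-5/Cy-3 ratios of 2 isoforms, or of Cox7a2 and Cox7a2l, for the 10 pairs tested. Points are single arrays in the order of the animal numbers, and the bar and whiskers give the mean and SD. The 10 arrays lie on 1 side of 0 for 7 pairs, with Cox6a1 minus Cox6a2 highest at 3.62 and Atp5g2 minus Atp5g3 lowest at -3.19.

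Complex V, ATP synthase, had 8 of 17 genes higher and 2 lower, beside 34.5% and 27.3% of all named genes. The genes of its catalytic head, Atp5a1 and Atp5b, which encode the alpha and beta subunits, were both higher. Atp5a1 ran from 1.33 to 1.84 with a median of 1.64 (3.07-fold, adjusted p = 1.82e-10). Atp5b ran from 1.5 to 2.02 with a median of 1.76 (3.39-fold, adjusted p = 8.46e-11). At these brightest probes all arrays of both genes lay above 1. The other probes of both genes, also well above background on all arrays, were called higher too but did not stay above 1. The other Atp5a1 probe had a median of 1.16 and a lowest array of 0.89. The other Atp5b probes had medians of 1.3 and 0.66, with lowest arrays of 0.47 and -0.02, respectively. Beside Atp5g2, the lower gene was Atp5mpl, a small proteolipid of the membrane sector, which ran from -1.28 to -0.33 with a median of -0.82 (1.79-fold lower, adjusted p = 5.08e-06).

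The c ring of ATP synthase is encoded by 3 genes whose products differ in the import sequence that is later removed. These 3 genes held both the highest and the lowest median of the complex. Atp5g3 ran from 1.46 to 2.50 with a median of 2.11 (4.05-fold higher, adjusted p = 1.46e-09). Atp5g1 ran from 0.01 to 0.41 with a median of 0.19 and was not called. Atp5g2 ran from -1.40 to -0.87 with a median of -1.20 (2.26-fold lower, adjusted p = 6.15e-09). The order Atp5g3, Atp5g1, Atp5g2 held on all 10 arrays, with no overlap between the genes. Atp5g2 minus Atp5g3 was -3.19 ± 0.31 (SD, n = 10 arrays), a 9.13-fold shift, Atp5g1 minus Atp5g3 was -1.82 ± 0.35 and Atp5g1 minus Atp5g2 was 1.37 ± 0.12. In every setting tried Atp5g2 minus Atp5g3 lay between -3.37 and -2.93.

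The 7 assembly factors among the members help to build complex I without staying in it. Ndufaf1, Ndufaf2, Ndufaf3 and Ndufaf5 were higher, with medians of 0.64, 0.69, 1.28 and 1.38. Ndufaf4, Ndufaf6 and Ndufaf7 had medians of 0.01, -0.33 and 0.15 at their brightest probes and were not called, like Cox7a2l at -0.09. The other probe of Ndufaf7 was called higher, with a median of 1.04. For Ndufaf4, a dim probe that was well above background on 4 arrays in Cy-3 was called higher (3.06), and the remaining probe was not called (-0.30). Over a wider list of 39 assembly factors of all complexes, which includes the 7 members, 12 were higher and 8 lower with a median of 0.11. This lay near all named genes, of which 34.5% were higher and 27.3% lower, with a median of 0.12. The highest of the list were Ttc19, a factor of complex III, at 1.41 and Ndufaf5 at 1.38. The lowest was Nubpl, which delivers iron-sulphur clusters to complex I, at -1.69.

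Genes that feed the chain or carry its product away were set beside it. Over all named genes, 34.5% were higher and 27.3% lower. Of 15 genes of the citric acid cycle and pyruvate dehydrogenase, 8 were higher and 2 lower, with a median of 0.74. Mdh2, the mitochondrial malate dehydrogenase, was highest at 1.64 and Suclg2, the GTP-forming subunit of succinyl-CoA ligase, lowest at -1.44. Of 10 genes of ATP export and energy buffering, 5 were higher and none lower. These were the creatine kinases Ckb and Ckmt1, at 4.71 and 3.84, the adenine nucleotide carrier Slc25a4 at 1.91, and the outer membrane channels Vdac1 and Vdac2 at 1.49 and 1.16.

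Genes of the mitochondrial ribosome, which makes the mitochondrially encoded subunits, were also counted. Of 47 genes of its large subunit, 4 were higher, 22 lower and 21 not called, with a median of -0.54, beside 34.5% higher and 27.3% lower over all named genes. Their lowest gene was Mrpl35 at -1.83, and their highest Mrpl41 at 1.29. Among 12 regulators of mitochondrial biogenesis, 4 were higher and 4 lower, beside the same 34.5% and 27.3% over all named genes. The coactivator Ppargc1a was highest, from 2.22 to 3.28 with a median of 2.81. Yy1 and the ETS factor Gabpa, whose motifs were searched above, were lower, at -1.60 and -1.44, and Nrf1 was not called, at 0.10. No test between lists was made.

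**Figure D3:**
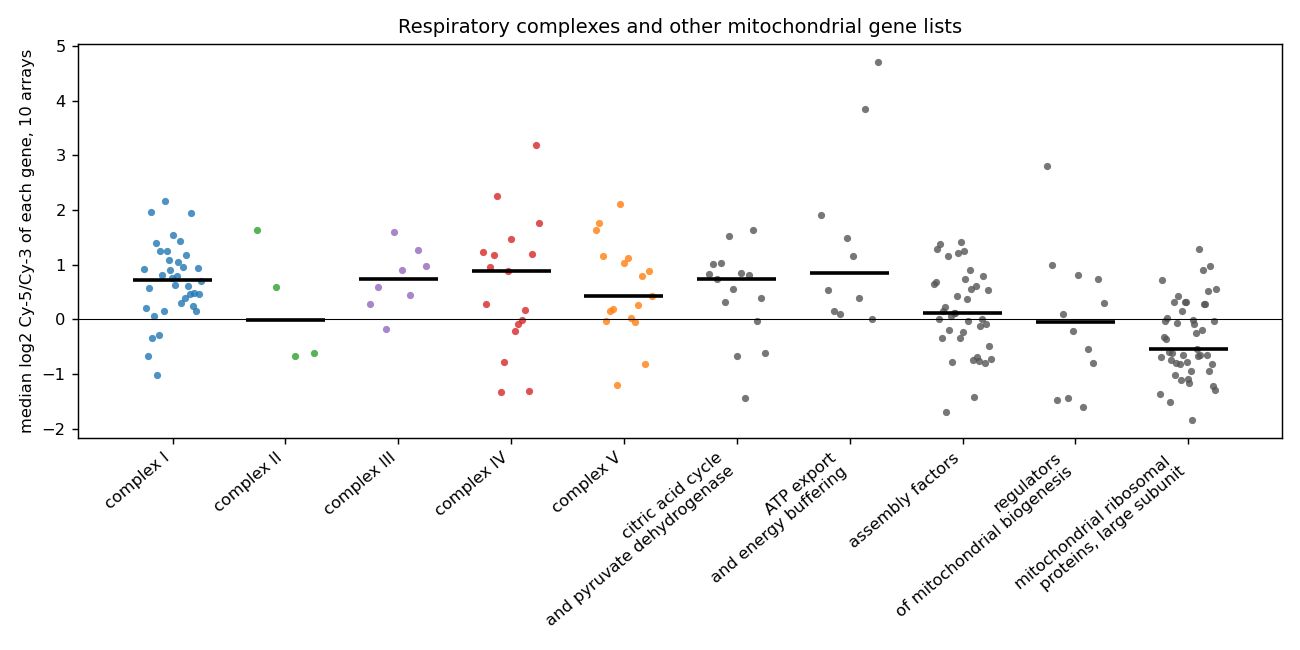
Median log2 Cy-5/Cy-3 over the 10 arrays of each gene, for the structural subunits of complexes I to V (Cox8c left out as near background) and for the other mitochondrial lists, of which the assembly factors share 7 genes with the set. Each point is a gene and the bar is the median of the list. Genes of the mitochondrial ribosome lie mostly below 0, while citric acid cycle and ATP export genes lie mostly above it.

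The members' ratios were also compared between arrays. For the 87 genes well above background on all arrays, C10-435 was the highest array for 33 genes and the lowest for none. Over all 11371 genes that met this condition, C10-435 was highest for 8.88% and lowest for 3.34%. The median deviation of the 87 genes from their own medians was 0.23 on C10-435, against 0.01 for all genes, and it was above 0 in each complex, from 0.11 in complex II to 0.31 in complex IV. At the other end, 29 of the 87 genes were lowest on C10-413 and 15 on C10-416, with median deviations of -0.12 and -0.14. On C10-413 the median deviation of complex II was 0.17, while those of the other complexes ran from -0.24 to -0.11. Over all genes, C10-413 was lowest for 19.9% and C10-416 for 8.21%. C10-435 remained the array with the most highest values, for 37 to 48 of the 87 genes, with no further loess, median centring, the floored subtraction and the authors' table. After normexp it was highest for 19 genes, and C10-413 was highest for 41 and lowest for 20. With the floored subtraction C10-413 was lowest for 21, with a median deviation of -0.06. In Cy-5, the background-subtracted signal had a median of 145 on C10-435 and 171 on C10-413, both among the brighter arrays. The part of signal strength in this pattern was not tested.

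**Figure D4:**
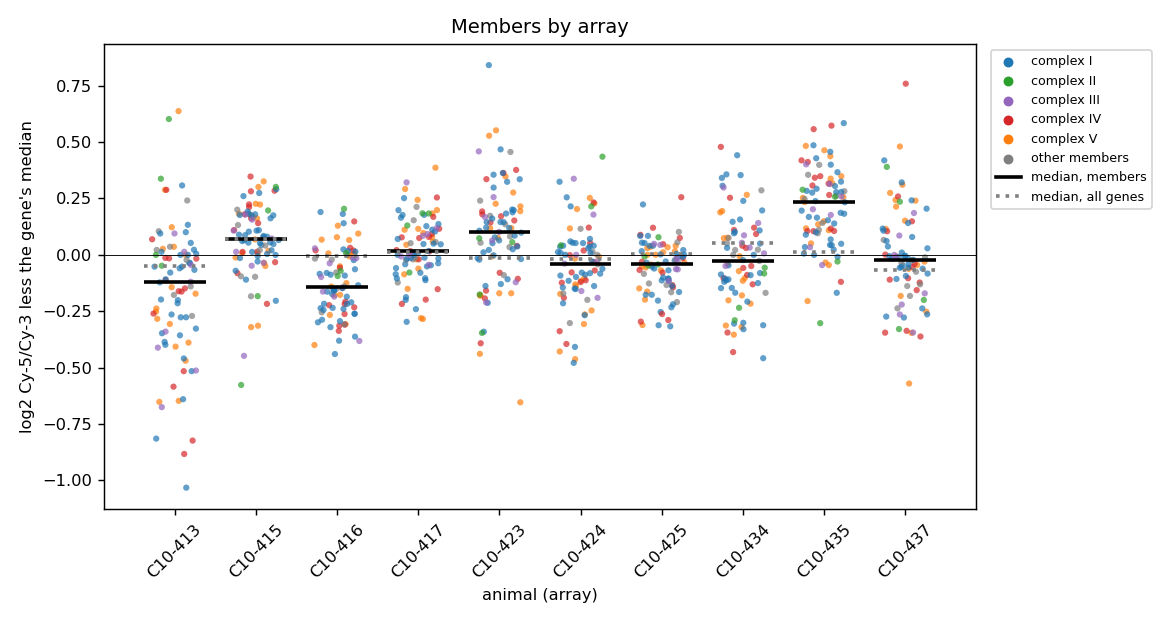
Deviation of each gene's log2 Cy-5/Cy-3 from its own median over the 10 arrays, for the 87 genes well above background in both dyes on all arrays. Points are genes coloured by complex, solid bars are their median on each array, and dotted bars are the median of all 11371 genes under the same condition. The members' median is highest on C10-435 at 0.23 and lowest on C10-416 at -0.14.

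Among the 87 genes well above background on all arrays, those with the widest range over the arrays were Ndufa1, Ndufc1, Atp5d, Ndufb3 and Cox7c. Ndufa1, a small complex I subunit encoded on the X chromosome, ran from 0.12 on C10-413 to 1.42 on C10-435. Ndufc1, another small subunit of complex I, ran from -0.72 on C10-413 to 0.57 on C10-415. Atp5d, the delta subunit of ATP synthase, ran the other way, from -0.67 on C10-423 to 0.62 on C10-413. Ndufb3, a small subunit of the membrane arm, ran from 0.51 on C10-413 to 1.74 on C10-423. With Cox7c, 4 of these 5 genes were thus lowest on C10-413.

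The arrays lay on 4 slides, of which 2 held 4 arrays each, and these were compared with each other. The slide is a technical unit, but each slide held different mice, so slide and mouse cannot be told apart. None of 89 members tested was called at an adjusted p under 0.05 (limma), against 0.0707% of all probes. At an unadjusted p under 0.05 there was 1 member, Cox6a1, against 9.83% of all probes. Its arrays ran from 1.94 to 2.15 on the first slide and from 2.18 to 2.73 on the second, a difference of 0.45 (adjusted p = 0.334). With the floored subtraction 10 members and after normexp 7 had an unadjusted p under 0.05, and none was called.

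Several probes of the same gene gave a check within the arrays. For 19 members with more than 1 probe well above background in both dyes on all arrays, the probes had the same call in 15 and a different call in 4, and in none were they called in opposite directions. The 4 were Ndufab1, Ndufv3, Ndufaf7 and Ndufa7. The widest gaps were in Ndufab1, the mitochondrial acyl carrier protein, at -2.20 and 0.16, and in Ndufv3, at -0.51 and 0.70 for its lowest and highest probes. For Atp5b the probes ran from 0.66 to 1.76, all called higher. The values given for these genes are those of the brightest probe.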

How the data were processed

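The members and gene lists were chosen with earlier results of these data known. RNA of 10 hemibrains was hybridized in Cy-5 against a reference in Cy-3 on whole mouse genome arrays. The authors deposited scanner output of Feature Extraction 10.10.1.1, with the signals of each dye as intensities on a linear scale, background-subtracted and dye-normalized by the software. The log ratio that the authors deposited for a spot is a log10 value, and a further deposited table holds log2 ratios. That table correlated with the scanner ratios across probes at 0.997 or more on every array, with array medians from -0.05 to 0.10. The methods name a LOWESS normalization within each array.

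Here log2 ratios of the processed signals were normalized by loess within each array (span 0.3). Control spots were left out, spots flagged as outliers were dropped, and the spots of a probe were averaged. A sample without a value for a probe was left out of that probe's fit, as for Ndufb3 on C10-434, Ndufc1 on C10-437 and Sdhb on C10-424, while Uqcrb had values on 5 arrays and Ndufa8 on 6. Medians of complexes and of all subunits over the arrays are over the genes with a value on an array, and they leave out Cox8c. A probe was well above background when the flag was set for a share of 0.5 or more of its spots. Probes were named through RefSeq accessions (GRCm38.p6), of which 27198 of 41174 matched, and a gene was read at its brightest probe. The hemibrain channel was tested against the reference with an intercept model over all probes (limma 3.58.1, R 4.3.3), which leaves out the spread of the reference. Isoform pairs were tested by exact sign flips over arrays (1024 arrangements with 10 arrays). The arrays come from separate mice, and their number limits the precision.

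Genes were named by rule. These were the isoform pairs, the catalytic core genes, the highest and lowest gene of each complex and the 5 with the widest range, both among genes well above background in both dyes on all arrays, the 5 with the smallest p between slides, those called lower, and genes of the other lists. Further genes, given mostly by a median alone, were picked with their values in view. The alternatives were no further loess, median centring, a floored subtraction (values under 0.5 set to 0.5, offset 50), normexp with the same offset on median signals, the authors' table, all probes of a gene, a filter on dim probes, other fold limits, slide as a random block, each slide alone and arrays left out. The scripts were tested on simulated data. The values of 1 gene are not reported here.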

Additional observations from a re-analysis of the deposited data

Results flagged for a closer look

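Of 52 measures checked for an array far from the others, 3 stood out, where chance alone gives about 1 in 20, or 2.6. Cox8a had a log2 ratio of 0.80 on C10-423, with the nearest other array at 1.08. Cox8c had 0.84 on C10-434, with the nearest at 0.12, but this gene was near background in both dyes. The share of probes well above background in Cy-5 was 49.8% on C10-434, with the nearest array at 68.2%. The causes were not tested.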

How the results depend on the processing

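The counts of 46 higher and 9 lower genes were 42 to 49 and 6 to 10 in every setting that kept the 1.5-fold limit. They were 28 and 3 at 2-fold, and 66 and 13 with no fold limit. The complex IV median of 0.75 moved to 0.54 with no further loess and with the authors' table, 0.51 with median centring, 0.43 with the floored subtraction, 0.25 after normexp and 0.96 on the second slide alone. The median of all subunits moved from 0.69 to 0.54 with the floored subtraction and 0.51 after normexp. The medians of complexes I, II, III and V moved by less than their spread between arrays. At 2-fold, assembly factors had 6 higher and 2 lower, regulators 1 higher, citric acid cycle genes 3 higher and 1 lower, and mitochondrial ribosomal genes 2 higher and 9 lower. With no fold limit, 8 ATP export genes, 12 ribosomal genes and 1 cytochrome c gene were higher. The floored subtraction left 1 lower citric acid cycle gene, and the mean over all probes left 2 higher ribosomal genes and gave 1 higher cytochrome c gene.

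Cox7a2 minus Cox7a1 (0.18) had a raw p above 0.05 with the floored subtraction (0.13), normexp (0.10) and all probes averaged (0.14), and lay between 0.19 and 0.24 with 1 replicate left out, with p above 0.05 without replicate 8 or 10. Cox7a2 minus Cox7a2l changed sign, with no call, to 0.0035 with no further loess or median centring, 0.022 after normexp, and 0.00060 to 0.091 without replicate 1, 8 or 10. Cox7b minus Cox7b2 was -0.32 to -0.11 with 1 replicate left out, with p under 0.05 without replicate 10. Cox8a minus Cox8b was -0.14 after normexp and no longer passed. The other pairs kept sign and call in each setting tested. Of the named genes, 6 changed sign, none of them called. Cox7a2 was 0.088 on the first slide, 0.011 on the second and -0.035 to 0.018 with 1 replicate left out, and Cox7a2l was 0.050 on the second slide. Cox7b was -0.036 with no further loess and with the authors' table, -0.037 with median centring, -0.045 on the second slide and -0.046 to 0.077 with 1 replicate left out. Cox8c was 0.081, 0.081 and 0.080 in the same order, 0.21 on the second slide and -0.095 to 0.010 with 1 replicate left out. Ndufc1 was -0.13 with all probes averaged. Ndufs8 was -0.011 with no further loess and with the authors' table and -0.013 with median centring. Replicate 1 (C10-413) was left out after seeing the data. The causes were not tested. No paired analysis was possible because the arrays form 1 group.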
